A study of Mus musculus with 12 samples.

Results

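The transcription factors that make and keep a corticotroph were followed in RNA of sorted mouse pituitary cells. The 8 genes were chosen by name: *Tbx19*, *Neurod1*, *Pitx1*, *Lhx3*, *Lhx4*, *Isl1*, *Stat3* and *Pax7*. All 8 were found among the 55304 genes of the expression table and all 8 were among the 24736 genes tested, those above 0.1 normalised counts in 3 or more of the libraries. A normalised count is the CPM of a gene, its reads scaled to the total of the library, after a further scaling for composition, and 1 read was worth 0.0787 to 0.127 of it. Male *Pomc*-eGFP mice on a C57Bl6/J background, 8 weeks old on entry, carried green fluorescent protein driven by the *Pomc* promoter, and green cells of the anterior lobe were collected by flow sorting. Control mice (A) had plain drinking water, the DEX group (B) had 2.5 µg/ml dexamethasone, a synthetic glucocorticoid, in the water for 4 weeks, and the other groups had the same course followed by 7 days (C) or 28 days (D) of plain water. Each group had 3 libraries, each from a pool of 2 or 3 pituitaries, so replicates are pools. The sort marks cells by the *Pomc* promoter, which DEX itself acts on.

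Libraries held 7719894 to 12848078 reads on genes, with a median of 10227503.5. The libraries did not hold corticotroph RNA alone: somatotroph genes took 8.24% to 23.0% of the reads of a library and lactotroph genes 3.53% to 10.4%. The somatotroph share was 8.24% to 11.7% in the DEX pools and 15.4% to 23.0% in the pools 4 weeks after DEX. Of the 4 somatotroph markers limma called 0 between these groups, where it called 0.873% of all genes tested. All 4 were still higher after 4 weeks in the fit (median log2 fold change 0.87). In 3 of them every pool of 4 weeks was above every DEX pool, as in 9.8% of genes. Genes of the posterior lobe were near 0, between 0 and 1.26 normalised counts in sum. Markers of endothelium, of pericytes and fibroblasts and of leukocytes were scarce but differed between these groups as well. The 5 endothelial markers were in sum 2.82 to 7.85 normalised counts with DEX and 73.7 to 139 after 4 weeks (median log2 fold change 4.01, 4 of 5 called by limma). The 5 pericyte and fibroblast markers were 0.897 to 8.18 and 42.7 to 63.3 in sum (median 4.43, 2 called), and the 5 leukocyte markers 15.7 to 22.7 and 83.9 to 183 (median 1.93, 1 called). Pool 3 taken 1 week after DEX stood apart, with 39.5 normalised counts of *Tbx19* and 1.56 of *Avpr1b*, each the lowest of all 12 pools, and 155 of the endothelial markers, the highest of all 12. Its somatotroph share, 17.8%, was the highest of its group, and its *Pomc* lay within the control range.

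Corticotrophs are the cells of the anterior pituitary that make adrenocorticotrophic hormone from the *Pomc* precursor. *Tbx19*, also called Tpit, is the T-box factor that commits cells to this fate, and it acts on the *Pomc* promoter together with *Pitx1*. *Neurod1* binds an E-box of the same promoter, LIM homeodomain factors open the pituitary programme, and *Stat3* carries the signal of leukaemia inhibitory factor to the promoter. *Pax7* turns the same *Tbx19*-positive precursor towards the melanotroph of the intermediate lobe. Glucocorticoids repress *Pomc*, and the comparison of the 4 groups asks which of the factors move with DEX and with its withdrawal.

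*Pomc* is the target these factors share, and *Tbx19* the factor whose level differed most between pools. The sequences just upstream of their start sites are shown, with matches to short motifs marked. Both are the 250 bases before the RefSeq start site in GRCm38.p6, read 5′ to 3′ on the strand of the gene. They lie at chr12:3954695-3954944 on the plus strand and at chr1:165160774-165161023 on the minus strand. Capitals mark every match, on either strand, to TCACAC (T-box half-site), CAGATG (neurogenic E-box), TAATCC or TAAGCC (Pitx sites), TAATTA (LIM homeodomain site) and AGAACA (glucocorticoid receptor half-site).
Pomc: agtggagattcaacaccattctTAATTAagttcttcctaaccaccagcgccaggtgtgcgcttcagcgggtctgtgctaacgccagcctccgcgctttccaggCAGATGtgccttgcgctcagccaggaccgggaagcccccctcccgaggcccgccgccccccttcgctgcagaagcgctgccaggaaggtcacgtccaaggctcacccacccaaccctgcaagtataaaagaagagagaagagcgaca
Tbx19: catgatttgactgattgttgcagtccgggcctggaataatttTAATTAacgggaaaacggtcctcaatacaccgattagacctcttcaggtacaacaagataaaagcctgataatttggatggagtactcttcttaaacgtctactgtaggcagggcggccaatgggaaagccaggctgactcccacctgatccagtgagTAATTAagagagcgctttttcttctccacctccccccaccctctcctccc
The *Pomc* sequence held 1 match to CAGATG, starting 147 bases before the start site, and 1 to TAATTA, starting 228 bases before it. The *Tbx19* sequence held 2 matches to TAATTA, starting 208 and 50 bases before the start site. Of 32851 mouse promoter windows, which run 250 bases before to 50 bases after a start site, 17.2% held CAGATG and 5.29% held TAATTA. The other 4 motifs had no match in the windows of *Pomc* and *Tbx19*. The T-box half-site was held by 14.5% of all windows, TAATCC by 7.06%, TAAGCC by 9.48% and the receptor half-site by 19.0%. Promoter windows were found for 7 of the 8 factors. These matches are letters in a short window and describe no binding. Sequence farther upstream was not searched, so sites that lie there are not shown.

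*Tbx19* was the most abundant of the 8 factors per length of transcript as a mean over the pools. Divided by the exonic length, its mean was 126 normalised counts per kilobase over the 12 pools and 94.6 over the control pools. It did not lead in every pool. Its reads per read of *Lhx3*, a gene of similar exonic length, went down to 0.279 after 1 week and 0.763 after 4 weeks. *Lhx3*, *Pitx1* and *Stat3* followed with 41.9, 35.0 and 33.9 per kilobase, and the ranges of the 3 over the pools overlapped. *Neurod1* had 9.65 and *Isl1* 1.70 per kilobase, and *Lhx4* and *Pax7* were near 0 at 0.0745 and 0.0157. The factors also differed in how steady they were: the highest pool held 37.8 times the normalised count of the lowest for *Tbx19*, 7.80 times for *Neurod1*, 3.55 times for *Isl1*, 3.30 times for *Pitx1*, 2.93 times for *Stat3* and 1.77 times for *Lhx3*.

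None of the 8 factors passed the F test over the 4 groups with limma at an adjusted p under 0.05, which 78 genes (0.315% of those tested) passed. At an unadjusted p under 0.05 there was 1 factor, *Tbx19*, where 2277 of all genes tested reached that level. edgeR's quasi-likelihood test on the recovered reads also called none of the 8 (0.639% of all genes). edgeR's likelihood ratio test (4.18% of all genes) and DESeq2 (2.97%) each called 1, *Tbx19*. limma with weights for the libraries (4.32%) called 2, *Tbx19* and *Neurod1*. In the single comparisons, limma called 0.121% of genes for DEX against control, 0.433% for 1 week after DEX against DEX, 0.873% for 4 weeks after DEX against DEX and 0% for the other 3, and none of the 8 factors was among those called.

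**Figure D1:**
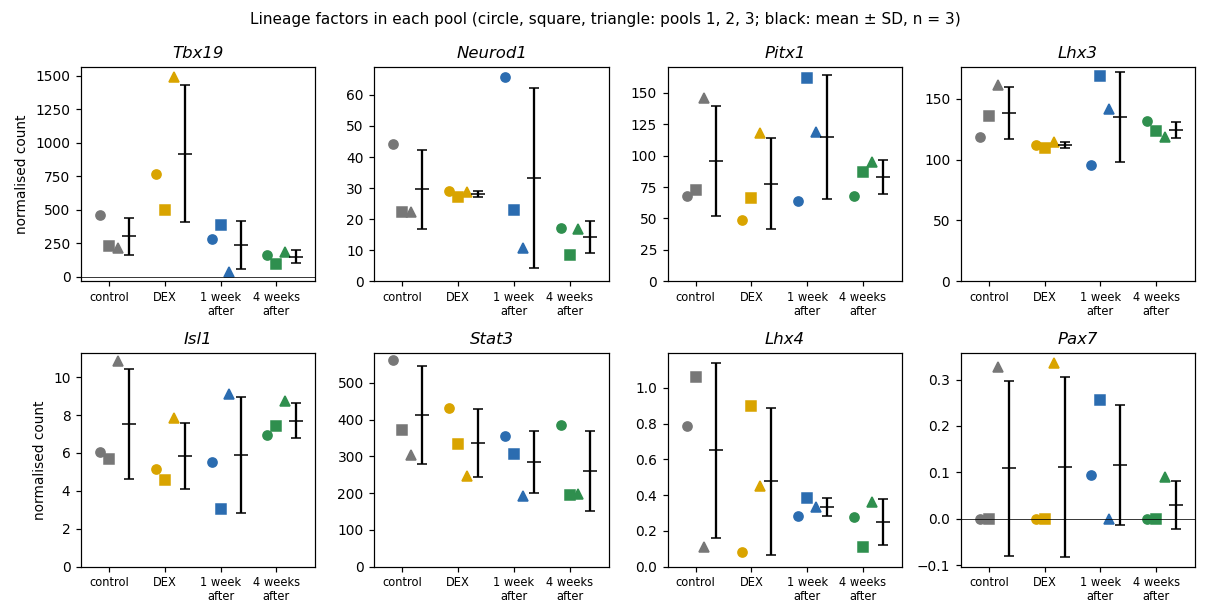
Normalised count (vertical axis, linear) of each factor in the 12 pools, by group along the horizontal axis; circles, squares and triangles are pools 1, 2 and 3, and the black marks are the mean ± SD (n = 3). The 3 DEX pools of Tbx19 lie between 498 and 1490.0, above all other pools, while Lhx3 stays between 95.3 and 168 in every pool.

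*Tbx19* (chr1:165137855-165160773, minus strand, GRCm38) held 459, 229 and 218 normalised counts in control pools 1 to 3, and 769, 498 and 1490.0 in the DEX pools. It held 282, 385 and 39.5 in the pools 1 week after DEX and 166, 94.4 and 188 in those 4 weeks after DEX. Every DEX pool was above every other pool, a pattern that 558 genes (2.26%) shared, and every pool 4 weeks after DEX was below every control pool. Both together were seen in 72 genes (0.291%). The group means were 302 ± 136 (SD, n = 3) in control, 919 ± 513 with DEX, 236 ± 177 after 1 week and 149 ± 48.9 after 4 weeks.

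In the limma fit, *Tbx19* was 2.92-fold higher in DEX than in control pools (log2 fold change 1.55 ± 0.65 SE, adjusted p = 0.69). The DEX level of *Tbx19* was 5.10-fold that of the pools 1 week after DEX (log2 fold change -2.35, limma adjusted p = 0.13) and 5.78-fold that of the pools 4 weeks after DEX (log2 fold change -2.53, 95% interval -3.92 to -1.14, limma adjusted p = 0.088). After 4 weeks without DEX, *Tbx19* was 1.98-fold below control in the fit (log2 fold change -0.99, 95% interval -2.37 to 0.40, limma adjusted p = 0.86). The exact permutation test of each non-overlapping pair of groups gave p = 0.1, the smallest that 3 pools against 3 allow. Leaving out single pools taken 1 week after DEX moved the log2 fold change of *Tbx19* against DEX from -2.35 to -1.33 without pool 3 and to -2.97 without pool 2.

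The call for *Tbx19* turned on the test and on single libraries. edgeR's likelihood ratio test took the spread from a trend over genes, so the spread of *Tbx19* between its own pools did not enter. With edgeR's likelihood ratio test, the adjusted p of *Tbx19* over the 4 groups was 3.8e-10, that of DEX against control 0.0046 (1.11% of all genes called) and that of 4 weeks after DEX against DEX 2.1e-08 (2.64% called). With DESeq2 they were 0.0032, 0.27 and 0.0012, where the last 2 comparisons called 0.825% and 2.68% of all genes. Both tools also called *Tbx19* for 1 week after DEX against DEX, at an adjusted p of 6.6e-05 with the likelihood ratio test (2.85% of genes called) and 0.039 with DESeq2 (2.32%). With library weights limma called it for 4 weeks after DEX against DEX (adjusted p = 0.0028, 5.26% of genes called). edgeR's quasi-likelihood test left *Tbx19* at 0.098 over the 4 groups and 0.051 between the DEX pools and those 4 weeks after DEX, a comparison in which it called 0.865% of genes. Without pool 3 taken 1 week after DEX, limma gave *Tbx19* an adjusted p of 0.025 over the 4 groups and 0.0043 for 4 weeks after DEX against DEX. Without pool 2 of that group the second value was 0.044.

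In bulk RNA, fewer cells of a type and less RNA of a gene per cell cannot be told apart. Other genes that mark corticotrophs did not all follow *Tbx19*. Of the 4 listed, 1, *Avpr1b*, was above control with DEX in the limma fit. The other 3, *Pomc*, *Pcsk1* and *Crhr1*, were below it (median log2 fold change of the 4 -0.52). *Pcsk1* ran from 155 to 837 normalised counts over the 12 pools, with a limma F test adjusted p of 0.82. *Avpr1b*, the vasopressin receptor of corticotrophs, held 60.0, 25.6 and 12.1 normalised counts in control, 103, 67.9 and 130.1 with DEX, 40.0, 36.7 and 1.56 after 1 week and 14.2, 9.30 and 24.5 after 4 weeks. Its DEX pools lay above all other pools too, as those of 2.26% of genes did, and its limma F test gave an adjusted p of 0.41. *Crhr1*, the receptor for corticotrophin-releasing hormone, held 189, 95.2 and 85.5 in control, 52.7, 59.2 and 138 with DEX, 125, 201 and 12.5 after 1 week and 49.2, 52.9 and 101 after 4 weeks, so that its groups overlapped. *Gh*, the somatotroph hormone, held 67563 to 104242 normalised counts with DEX and 150271 to 265851 once DEX had been withdrawn for 4 weeks. The part of the somatotroph share, or of the endothelial and other markers given above, in the *Tbx19* difference was not tested.

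*Pomc* was lowest where *Tbx19* was highest, in the DEX pools. *Pomc* held 74260.1, 34562 and 74221 normalised counts in control, 4362, 8521 and 4241 with DEX, 149459, 284739.5 and 43612 after 1 week and 49562, 48189 and 80216 after 4 weeks. All DEX pools were below all other pools in *Pomc* and above all other pools in *Tbx19*. DEX pools above all other pools were seen in 2.26% of genes, and DEX pools below all control pools in 6.23%. The share below all other pools was not counted. The limma F test of *Pomc* gave an adjusted p of 0.22 (unadjusted p = 0.0051), so that neither gene passed in this fit. The paper, which used edgeR with a trended dispersion, lists *Pomc* among its genes that differed between the groups.

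The ratio of the reads of *Pomc* and *Tbx19* within a library does not depend on the scaling of libraries. It was formed after the values of both genes had been seen and is given as a description. There were 151 to 341 reads of *Pomc* per read of *Tbx19* in control pools, 2.85 to 17.1 in DEX pools, 530.0 to 1105 after 1 week and 299 to 511 after 4 weeks. DEX pools were below and the pools 1 week after DEX above all control pools in this ratio. The pool with little *Tbx19*, pool 3 after 1 week, had the highest ratio of its group, 1105.

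Over the 9 pools outside the DEX group, *Tbx19* and *Pomc* had a Pearson r of 0.57 (exact permutation p = 0.11) and a Spearman rho of 0.60 (exact permutation p = 0.097) on the log2 scale. Without the 2 pools farthest from the median of *Pomc*, r was 0.68 (n = 7). The DEX pools form a separate cluster in *Pomc* and were kept out. *Neurod1* had r = 0.50 with *Pomc* (exact permutation p = 0.17, rho = 0.62, exact permutation p = 0.086) and 0.86 without those pools. *Isl1* had r = -0.64 (exact permutation p = 0.070, rho = -0.42, exact permutation p = 0.27) and -0.43 without them, and r was -0.11 without pool 2 taken 1 week after DEX alone. *Stat3* had r = 0.14 (exact permutation p = 0.72, rho = 0.17, exact permutation p = 0.68) and 0.37 without them. *Pitx1* had r = 0.38 (exact permutation p = 0.32, rho = 0.083, exact permutation p = 0.84) and *Lhx3* 0.066 (exact permutation p = 0.86, rho = -0.18, exact permutation p = 0.64), and both values rest on those pools, since r without them was -0.33 and -0.65. Of these 6 relations none passed when adjusted over all genes tested with limma (lowest adjusted p = 0.42), and no gene of the table passed in that fit.

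**Figure D2:**
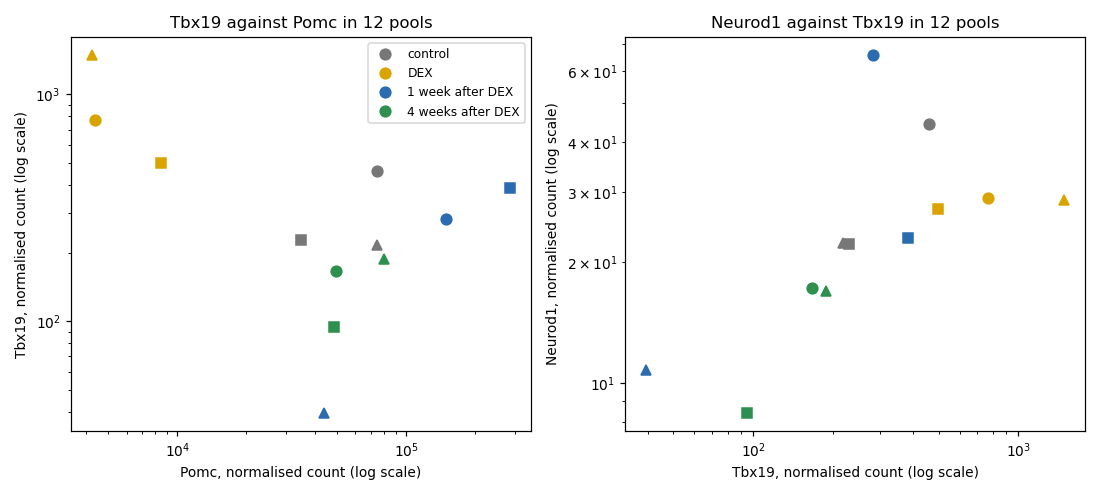
Normalised counts of Tbx19 against Pomc (left) and of Neurod1 against Tbx19 (right) in the 12 pools, both axes on a log scale; colours are groups and circles, squares and triangles are pools 1, 2 and 3. The DEX pools (yellow) sit apart at Pomc counts of 4241 to 8521 and Tbx19 counts of 498 to 1490.0, and their Neurod1 counts, 27.1 to 28.9, lie within the range of the control pools.

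*Neurod1* (chr2:79452521-79456751, minus strand), a basic helix-loop-helix factor, held 44.3, 22.3 and 22.4 normalised counts in control and 28.9, 27.1 and 28.6 with DEX. It held 65.8, 23.1 and 10.8 after 1 week and 17.3, 8.43 and 17.0 after 4 weeks. No DEX pool of *Neurod1* left the control range, with a coefficient of variation of 3.34% against 42.8%, and the pools 4 weeks after DEX were below all control and all DEX pools. The pools after 1 week held both the highest value of the gene and a value below all control pools.

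*Neurod1* was 2.07-fold below control 4 weeks after DEX (log2 fold change -1.05 ± 0.50 SE, limma adjusted p = 0.79) and 2.08-fold below DEX (log2 fold change -1.05, limma adjusted p = 0.51). Pools of 4 weeks below all control pools were seen in 6.42% of genes, and below all DEX pools in 9.67%. The limma adjusted p over the 4 groups was 0.76, and with library weights 0.038. Part of the exons of *Neurod1* is shared with other annotated genes: 201 exonic bases, 7.37%, with *Cerkl* on the same strand.

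*Neurod1* and *Tbx19* kept a nearly fixed proportion in the control pools and in those 4 weeks after DEX, in a ratio also formed after the values had been seen. There were 0.0965 to 0.103 reads of *Neurod1* per read of *Tbx19* in the control pools, where the levels ran from 22.3 to 44.3 and from 218 to 459 normalised counts, and 0.0893 to 0.104 in the pools 4 weeks after DEX. In the DEX pools the ratio was 0.0192 to 0.0545, below all control pools. After 1 week it was 0.0599, 0.233 and 0.273, the lowest of them in pool 2. Over the 12 pools the levels of the pair had a Pearson r of 0.66 and a Spearman rho of 0.83, the highest rho of the 15 pairs among the 6 factors with a mean of at least 1 normalised count. By Pearson r it was not the highest: *Pitx1* with *Lhx3* had 0.74 (rho 0.79) and *Neurod1* with *Stat3* 0.71 (rho 0.65). The libraries share differences in cell makeup, so the relation of *Neurod1* and *Tbx19* describes the libraries and carries no test.

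**Figure D3:**
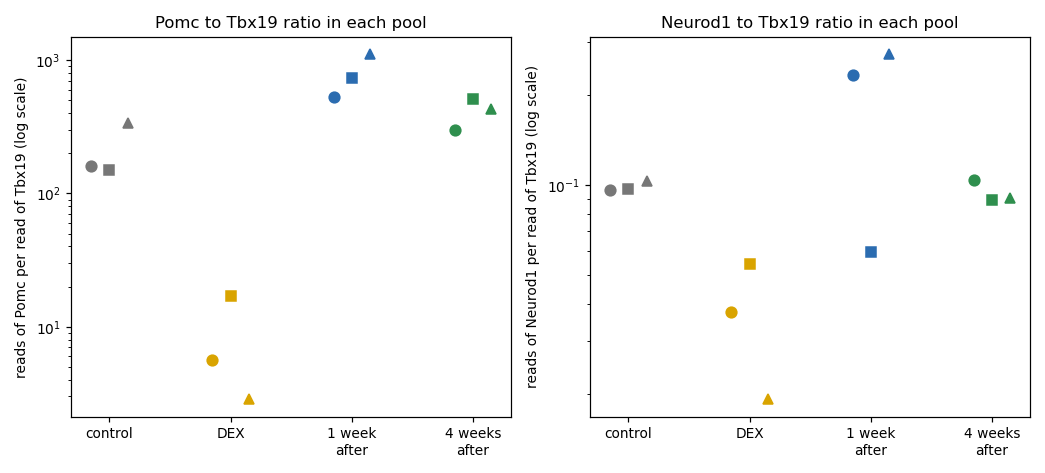
Reads of Pomc per read of Tbx19 (left) and of Neurod1 per read of Tbx19 (right) in each pool by group, on log axes; circles, squares and triangles are pools 1, 2 and 3. Both ratios are lowest in the DEX pools, 2.85 to 17.1 and 0.0192 to 0.0545, and the Neurod1 ratio of the control pools is held between 0.0965 and 0.103.

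*Pitx1* (chr13:55825051-55836192, minus strand), the homeodomain partner of *Tbx19* that is present in all hormone cells of the anterior lobe, held 68.0, 72.8 and 146 normalised counts in control and 49.0, 66.1 and 118 with DEX. It held 64.0, 162 and 119 after 1 week and 67.8, 86.9 and 94.7 after 4 weeks. All groups overlapped. The log2 fold changes against control were -0.30 for DEX (95% interval -1.13 to 0.52), 0.26 after 1 week (-0.57 to 1.08) and -0.12 after 4 weeks (-0.95 to 0.70), with a limma adjusted p of 0.94 over the 4 groups. Of its exonic bases, 165 are also exonic in the antisense gene *Gm47071*.

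*Lhx3* (chr2:26200212-26208289, minus strand), a LIM homeodomain factor needed for the hormone lineages to arise, had the smallest spread over the pools of the 6 factors with a mean of at least 1 normalised count. It held 118, 136 and 161 normalised counts in control, 112, 109.8 and 115 with DEX, 95.3, 168 and 141 after 1 week and 132, 124 and 119 after 4 weeks. The DEX pools of *Lhx3* were within 2.24% of each other as a coefficient of variation and lay below all control pools, as 6.23% of genes did. They also lay below all pools of 4 weeks, as 9.8% of genes did in that direction. The sizes were small: the log2 fold change of DEX against control was -0.29 (95% interval -0.80 to 0.22, limma adjusted p = 0.88), and the F test over the 4 groups had an adjusted p of 0.96.

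*Tbx19* was also set against *Lhx3* within each library, a choice made after the values had been seen. There were 1.35 to 3.87 reads of *Tbx19* per read of *Lhx3* in control pools, 4.53 to 13.0 in DEX pools, 0.279 to 2.96 after 1 week and 0.763 to 1.58 after 4 weeks. The DEX pools were above all 9 others in this ratio, while the pools after 4 weeks reached into the range of the control pools.

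*Isl1* (chr13:116298281-116309689, minus strand), another LIM homeodomain factor, which in the adult gland is best known from gonadotrophs and thyrotrophs, was low. It held 6.06, 5.65 and 10.9 normalised counts in control, 5.14, 4.58 and 7.85 with DEX, 5.51, 3.06 and 9.12 after 1 week and 6.93, 7.44 and 8.75 after 4 weeks. Its groups overlapped and the limma adjusted p over the 4 groups was 0.94. The log2 fold changes against control were -0.33 for DEX, -0.42 after 1 week and 0.09 after 4 weeks.

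*Lhx4* (chr1:155698031-155751684, minus strand), which acts with *Lhx3* in the early gland, and *Pax7* (chr4:139737062-139833528, minus strand), the melanotroph factor, were close to the limit of the data. *Lhx4* had 1 to 11 reads in a library, between 0.0828 and 1.06 normalised counts, and its mean over a group was between 0.249 and 0.652. *Pax7* had at most 3 reads in any library and 10 in all, and 7 pools had none. A difference was not detectable at this depth, and fold changes are not given for the pair. The limma adjusted p over the 4 groups was 0.97 for *Lhx4* and 0.98 for *Pax7*.

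Genes that mark melanotrophs were present at low levels, in sum 89.0 to 101.9 normalised counts in the DEX pools and 107.9 to 190.2 in the other 9. Of the 5 genes, 1 passed the limma F test (0.315% of all genes), *Esm1* (adjusted p = 0.045), a gene also known from endothelium. *Esm1* held 36.8, 51.4 and 24.1 normalised counts in control, 3.81, 4.66 and 1.79 with DEX, 58.6, 14.5 and 6.78 after 1 week and 37.0, 20.1 and 25.0 after 4 weeks. It fell by 3.45 on the log2 scale with DEX against control (limma adjusted p = 0.030) and rose by 3.02 from DEX to 4 weeks after it (limma adjusted p = 0.026). *Pcsk2*, the convertase that cuts *Pomc* further in melanotrophs, held 38.3 to 129.7 and *Oacyl* 0.449 to 20.01 normalised counts over the 12 pools. The pool highest in both, pool 2 after 1 week, had 2 reads of *Pax7*.

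*Stat3* (chr11:100885098-100939540, minus strand) held 561, 371 and 304 normalised counts in control, 431, 332 and 247 with DEX, 356, 306 and 191 after 1 week and 386, 196 and 198 after 4 weeks. The means ran from 412 ± 133 (SD, n = 3) in control to 337 ± 92.1 with DEX, 285 ± 84.7 after 1 week and 260 ± 109 after 4 weeks, and all groups overlapped. The log2 fold changes of *Stat3* against control were -0.28 with DEX, -0.53 after 1 week and -0.69 after 4 weeks (95% interval of the last -1.44 to 0.05), with a limma adjusted p of 0.84 over the 4 groups. *Stat3* shares 72 exonic bases, 0.756%, with its antisense neighbour *Stat5a*.

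**Figure D4:**
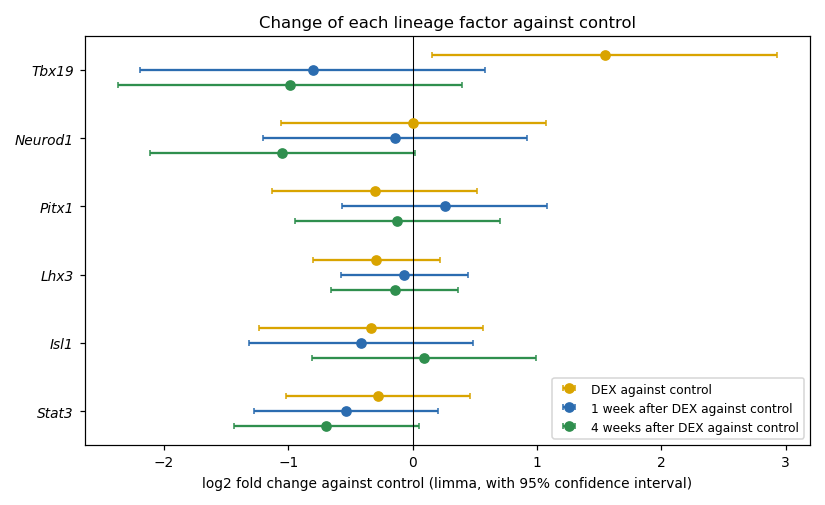
Log2 fold change against control (horizontal axis) of the 6 factors with a mean of at least 1 normalised count, with 95% confidence intervals from limma; yellow is DEX, blue 1 week and green 4 weeks after DEX. Tbx19 with DEX, at 1.55, is the only point whose unadjusted interval, 0.16 to 2.93, leaves out 0, and its adjusted p was 0.69.

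Of the 8 factors, 5 had a log2 fold change below 0 with DEX, 6 after 1 week and 7 after 4 weeks, with medians of -0.29, -0.28 and -0.54. Over all genes tested the medians were -0.022, 0.0022 and close to 0. The list was not tested as a set, and *Lhx4* and *Pax7* count here on a few reads.

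The levels of the factors were set against that of *Gh*, as a measure of the somatotroph RNA in a pool. Over the 12 pools, *Pitx1* was higher where *Gh* was higher (Pearson r = 0.72, permutation p = 0.0099, Spearman rho = 0.78, permutation p = 0.0043), and without the 2 pools farthest from the median of *Gh* r was 0.71 (n = 10). *Stat3* went the other way (Pearson r = -0.72, permutation p = 0.0093, Spearman rho = -0.74, permutation p = 0.0077, r without those pools -0.62). *Neurod1* did as well (Pearson r = -0.67, permutation p = 0.014, Spearman rho = -0.70, permutation p = 0.013, r without those pools -0.71). *Tbx19* had r = -0.58 (permutation p = 0.048, rho = -0.57, permutation p = 0.057), *Lhx3* 0.60 (permutation p = 0.039, rho = 0.64, permutation p = 0.031) and *Isl1* 0.35 (permutation p = 0.27, rho = 0.52, permutation p = 0.083).

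When adjusted over all genes tested with limma, none of these 6 relations to *Gh* passed: the adjusted p was 0.068 for *Pitx1*, 0.081 for *Stat3* and 0.087 for *Neurod1*, where 528 genes of the table passed. Within groups, with the group as a term in the fit, *Pitx1* had r = 0.91 with *Gh* (limma adjusted p = 0.032), *Lhx3* 0.74, *Stat3* -0.72 and *Neurod1* -0.57, and *Tbx19* -0.19, with 264 genes passing. Of the 6 factors only *Pitx1* passed in that fit.

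**Figure D5:**
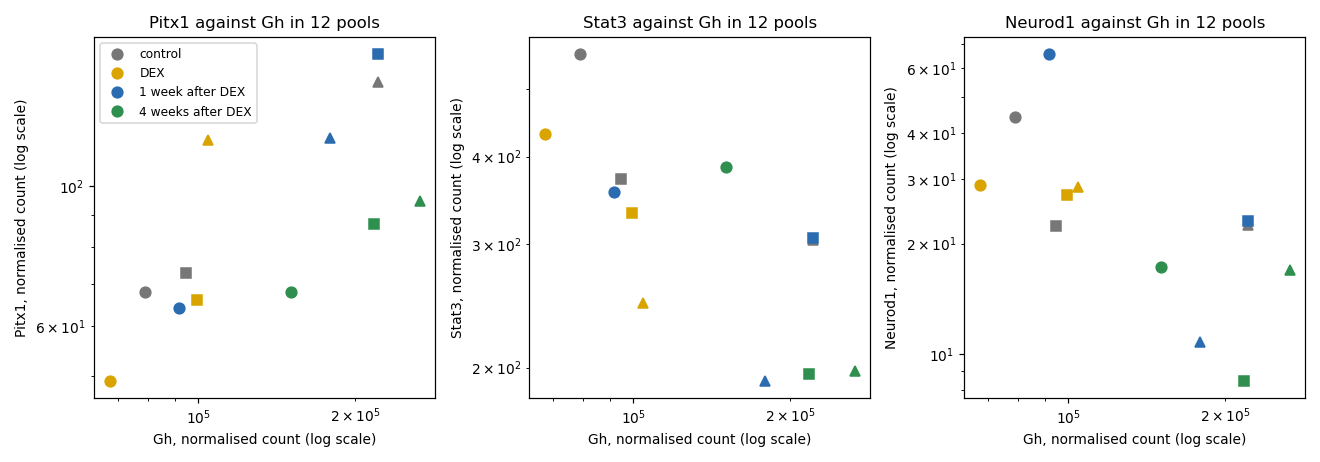
Normalised counts of Pitx1, Stat3 and Neurod1 (vertical axes) against that of Gh (horizontal axes) in the 12 pools, all on log scales; colours are groups and circles, squares and triangles are pools 1, 2 and 3. Pitx1 is higher and Stat3 and Neurod1 are lower in pools with more Gh (Pearson r 0.72, -0.72 and -0.67).

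Among the 9547 genes with a mean of at least 10 normalised counts, the 3 whose pattern over the 12 pools was closest to that of each factor were listed by Pearson r on the log2 scale. For *Tbx19* they included *Slc37a2* (0.97) and *Haus8* (0.96). For *Neurod1* they were *Khdrbs2* (0.92), *Palmd* (0.90) and *Dapp1* (0.89), and for *Stat3* *Trib1*, *Arid5a* and *Kcnj6* (each 0.91). For *Pitx1* they were *Higd2a* (0.98), *Dynlrb1* (0.98) and *Ppp1r11* (0.98), and for *Lhx3* *B9d1* (0.91), *Cdk2ap2* (0.90) and *Cnot8* (0.90). Among the factors themselves, *Pitx1* and *Lhx3* had r = 0.74 and *Neurod1* and *Stat3* r = 0.71, while *Pitx1* and *Stat3* had r = -0.55. The pools share their cell makeup, so none of these values is independent of it.

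Of 20 other proteins known to act with these factors on the *Pomc* promoter, among them E-box partners, *Nr4a* receptors and the glucocorticoid receptor, none passed the limma F test and 3 had an unadjusted p under 0.05. For 4 weeks after DEX against DEX, where 0.873% of all genes tested passed, 1 of the 20 did, the cell cycle factor *E2f1*. It held 2.57, 2.45 and 2.13 normalised counts with DEX and 7.02, 10.3 and 12.8 after 4 weeks (log2 fold change 1.99, limma adjusted p = 0.045). The median log2 fold change of the 20 genes in that comparison was -0.13, against 0.0021 for all genes tested.

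Of 24 genes of the gp130, JAK and STAT pathway that feeds *Stat3*, 1 passed the limma F test (0.315% of all genes). It was *Cntfr*, the receptor subunit for ciliary neurotrophic factor (limma F test adjusted p = 0.042). *Cntfr* held 5.98, 11.1 and 16.2 normalised counts in control, 26.7, 14.5 and 48.1 with DEX, 5.51, 1.78 and 2.89 after 1 week and 6.10, 6.35 and 7.31 after 4 weeks. Like *Tbx19* it was lower in the pools 1 week after DEX than in the DEX pools, 8.41-fold in the fit (limma adjusted p = 0.010), and for 4 weeks after DEX against DEX its limma adjusted p was 0.071. *Il6ra*, which binds interleukin 6, held 49.4, 44.6 and 49.7 with DEX and 16.6, 12.9 and 20.4 after 4 weeks without passing the limma F test (adjusted p = 0.15), and *Stat5a* held 18.8, 21.7 and 14.5 in control and 35.4, 27.8 and 45.5 with DEX (adjusted p = 0.30). The median log2 fold change of the 24 genes was 0.14 for DEX against control and -0.27 for 1 week after DEX against DEX, beside -0.022 and 0.029 for all genes tested.

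Of 18 factors of the early pituitary none passed the limma F test. Of 10 factors that set other hormone lineages none passed it either, and 2 passed for 4 weeks after DEX against DEX. Of all genes tested, 0.315% passed the F test and 0.873% that comparison. *Gata2*, a factor of gonadotrophs and thyrotrophs, held 8.45, 12.6 and 9.31 normalised counts with DEX and 28.4, 29.4 and 34.4 after 4 weeks (log2 fold change 1.61, limma adjusted p = 0.025). *Rxrg*, a retinoid receptor, held 17.6, 21.8 and 26.7 with DEX and 50.9, 53.5 and 61.2 after 4 weeks (log2 fold change 1.34, limma adjusted p = 0.026). In the same comparison *Tbx19* had a log2 fold change of -2.53 and *Neurod1* of -1.05 without passing. Markers of thyrotrophs were in sum 959 to 3364 normalised counts with DEX and 5259 to 6546 after 4 weeks, and endothelial markers 2.82 to 7.85 and 73.7 to 139. Most of the thyrotroph sum was *Cga*, which is also on the gonadotroph list. The median log2 fold change was 1.62 for the thyrotroph markers (1 of 4 called) and 0.20 for the gonadotroph markers (0 of 5). *Gata2* is also known from endothelium. Markers of stem and folliculostellate cells were in sum 70.1 to 83.9 and 135 to 178 (median log2 fold change 0.93, 1 of 6 called), and the part of these cells in the values of *Gata2* and *Rxrg* was not tested.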

How the data were processed

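Reads of 12 libraries, amplified with the SMART-V4 kit, were trimmed by the authors with Trim Galore 0.6.5, aligned to GRCm38 with STAR 2.7.1a and counted with featureCounts 2.0.0 in a strand-specific mode. Amplified cDNA of this kind does not as a rule mark strand, so reads on exons shared with an antisense gene cannot be told apart. What the authors deposited is a signal for each gene, normalised by them with edgeR's TMM factors. Whole reads were recovered for 100% of the 271881 values above 0 (within 1e-06 of a whole read), where the design had assumed plain CPM. limma 3.58.1 (R 4.3.3, trend) was fitted to log2(value + 0.1) of 24736 genes in 1 model of 4 groups, and an adjusted p under 0.05 (Benjamini-Hochberg over all genes) was called. Fold changes are on this scale and understate those of low genes. edgeR 4.0.16, whose quasi-likelihood test called 158 genes, and DESeq2 1.42.0 were run on the recovered reads as alternatives. The relation to *Pomc* was planned over 12 libraries and kept to 9 after the DEX pools were seen to stand apart. The labels name separate samples but no mice, so p-values measure the spread between pools. edgeR's likelihood ratio test took that spread from a trend over genes and not from each gene. Named genes are the 8 factors, *Pomc* and *Gh*, up to 4 genes of each other list by the smallest F test p, and the 3 genes most correlated with each factor of at least 10 normalised counts, 1 of which is not reported here. The factors and lists were chosen with earlier results of these data known. Intervals of the fits cover the spread between pools. The tests were tried on simulated data first.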

Additional observations from a re-analysis of the deposited data

Results flagged for a closer look

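The pools of *Tbx19* lay on opposite sides of the control pools with DEX and 4 weeks after DEX, and neither difference from control passed with limma (adjusted p = 0.69 and 0.86). All 3 DEX pools, 498 to 1490.0 normalised counts, were above and all 3 pools of 4 weeks, 94.4 to 188, below the control pools of 218 to 459. The difference between these groups was a log2 fold change of -2.53, tested with limma at an adjusted p of 0.088. It passed with edgeR's likelihood ratio test (2.64% of all genes called), DESeq2 (2.68%) and library weights (5.26%). It also passed without pool 2 or pool 3 taken 1 week after DEX. The same difference did not pass with edgeR's quasi-likelihood test, with other pseudocounts or scalings, or with any other library left out. Nor did it pass with the replicate number as a block or with only the 2 groups in the model. Markers of other cells differed between the same groups. The somatotroph share of the reads was 8.24% to 11.7% with DEX against 15.4% to 23.0%, with 0 of 4 markers called by limma. All 4 were higher after 4 weeks in the fit. Endothelial markers were in sum 2.82 to 7.85 against 73.7 to 139 normalised counts, with 4 of 5 called. The part of either was not tested.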

How the results depend on the processing

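The number of genes called depended on the test and on the libraries included. Over the 4 groups it was 78 with limma, 158 with edgeR's quasi-likelihood test, 1033 with its likelihood ratio test, 734 with DESeq2, 1069 with library weights, and 7 to 186 with 1 library left out. For DEX against control it was 30, against 49 and 54 at pseudocounts of 0.5 and 1, 274 with the likelihood ratio test, 204 with DESeq2, 166 with library weights, 1 with only the 2 groups in the model and 2 to 66 with 1 library left out. For 1 week after DEX against control it was 0, against 2 and 3 at those pseudocounts, 1 with the quasi-likelihood test, 50 with the likelihood ratio test, 13 with DESeq2, 4 with library weights and 0 to 2 with 1 library left out. For 4 weeks after DEX against control it was 0, against 91, 59 and 186 with the likelihood ratio test, DESeq2 and library weights, and 0 to 1 with 1 library left out. For 1 week after DEX against DEX it was 107, against 705, 573 and 566 with the same 3, 0 with only the 2 groups and 7 to 201 with 1 library left out. For 4 weeks after DEX against DEX it was 216, against 654, 662 and 1300, 21 with only the 2 groups and 19 to 402 with 1 library left out. For 4 weeks against 1 week after DEX it was 0, against 161, 15 and 8, and 0 to 1 with 1 library left out. The cause of these differences was not tested.

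*Tbx19* was called over the 4 groups in 4 of the alternatives, the likelihood ratio test, DESeq2, library weights (adjusted p = 0.016) and without pool 3 taken 1 week after DEX. With 1 library left out the limma adjusted p over the 4 groups ranged from 0.025 to 0.63. The signs of small fold changes, none of them called, turned in several fits. With 1 library left out, the log2 fold change of *Tbx19* ran from -1.43 to 0.21 for 1 week after DEX against control, from -2.97 to -1.33 for 1 week after DEX against DEX and from -1.20 to 0.44 for 4 weeks against 1 week after DEX (-0.18 with all libraries). That of *Neurod1* ran from -0.16 to 0.34 for DEX against control and from -0.83 to 0.47 after 1 week. Those of *Pitx1* ran from -0.66 to 0.047 for DEX, -0.040 to 0.63 after 1 week and -0.32 to 0.23 after 4 weeks. *Lhx3* ran from -0.24 to 0.17 after 1 week and *Isl1* from -0.081 to 0.38 after 4 weeks. For DEX against control *Neurod1* had 0.0072 with limma, -0.015 with median-ratio scaling, -0.056 with quantile normalisation, -0.067 with both edgeR tests and -0.092 with DESeq2. After 1 week *Neurod1* had -0.14 with limma, 0.17 with both edgeR tests, 0.16 with DESeq2 and 0.79 with library weights. With library weights *Pitx1* had -0.022 after 1 week and 0.14 after 4 weeks. With all 12 libraries the relation to *Pomc* had r = -0.49 for *Tbx19* and -0.049 for *Stat3*. With 1 library left out, r with *Pomc* ran from -0.16 to 0.63 for *Pitx1*, from -0.64 to 0.51 for *Lhx3*, from -0.80 to -0.11 for *Isl1*, from 0.35 to 0.72 for *Neurod1* and from 0.0041 to 0.27 for *Stat3*. For *Isl1* and *Gh*, r ran from 0.23 to 0.81, the highest without pool 2 taken 1 week after DEX. For *Pitx1* and *Gh*, r ran from 0.64 to 0.81 with 1 library left out, passing without DEX pool 3 (limma adjusted p = 0.036), and was 0.91 within groups.

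Pool numbers were not used to pair the samples. Same-numbered pools of 2 groups had deviations from the group means that correlated at -0.29 to 0.40 (median 0.056), over 0.1 in 7 of 18 pairs. Pools of different number correlated at -0.27 to 0.38 (median -0.014), over 0.1 in 7 of 36 pairs. With the replicate number as a block, 85 genes were called over the 4 groups and *Tbx19* had an adjusted p of 0.25, and the block changed no call of the 8 factors. Low reads limit *Lhx4* and *Pax7*.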

Other observations

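The library with the least *Tbx19* was not low in every other factor. Pool 3 taken 1 week after DEX held 39.5 normalised counts of *Tbx19*, and 119 of *Pitx1*, 141 of *Lhx3* and 9.12 of *Isl1*, each within the range of the control pools. It held 10.8 of *Neurod1* and 191 of *Stat3*, below all control pools, and 43612 of *Pomc*, within the control range. Its 3.02 reads of *Pitx1* per read of *Tbx19* compare with 0.148 to 0.670 in control pools and 0.0637 to 0.133 in DEX pools.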
